A study of Saccharomyces cerevisiae with 6 samples.

Results

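The genes described are autophagy genes of budding yeast listed under an ATG symbol. They were taken as every probe whose gene symbol in the platform annotation is ATG followed by a number, which gave 36 of the 5561 named genes on the array, each with 1 spot. Autophagy wraps cytoplasm in a double membrane and delivers it to the vacuole, the degradative organelle of yeast. A kinase complex around Atg1 starts the membrane, vesicles with Atg9 seed it, a lipid kinase marks it, and conjugation systems attach the ubiquitin-like proteins Atg8 and Atg12 as it grows. In yeast, TOR complex 1 holds the process back in rich medium by phosphorylating Atg13, and several ATG genes are also known to be transcribed more strongly when nitrogen is short.

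The cells were W303a yeast lacking the chromosomal TOR1 gene and carrying TOR1 on a plasmid, tagged with the haemagglutinin epitope (3HA). The plasmid gene either held the substitutions I1954V and W2176R (mutant) or was unaltered (WT), and the intact TOR2 gene of the host can also serve in TOR complex 1. Each genotype was given 3, 6 or 9 mM caffeine, a methylxanthine that inhibits TOR complex 1, and polyadenylated RNA was hybridised on a two-colour array with RNA of the same strain grown at 0 mM. There were thus 6 arrays, 3 per genotype, with 1 array per genotype and dose and no replicate of any dose. The comparison asks how caffeine acts in cells with the doubly substituted allele and in cells with the unaltered one.

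Values are log2 ratios, taken as caffeine (Cy5) over no caffeine (Cy3) and centred on the median named gene of each array. This sense of the ratio is likely rather than given: it is the usual order of the dyes, while the titles name the untreated RNA first, and the reverse sense would turn all signs below. The deposited array medians, which centring removed, were -0.22, -0.4 and -0.54 in the mutant and -0.3, -0.36 and -0.38 in WT at 3, 6 and 9 mM. For each genotype a line through 0 was fitted to a gene's ratios over dose. Slopes are in log2 units per mM, with an SE from limma that pools the spread over all 6 arrays, and a gene is said to have risen or fallen where the Benjamini-Hochberg adjusted p over 5212 genes lay below 0.05. The labels do not say whether the doses were separate cultures or whether a strain's untreated RNA was a shared pool, so the p-values reflect only the scatter of these arrays around a line, which may be technical. A log ratio carries no level, so neither the abundance of an ATG transcript nor the strain on an array could be checked. TOR1 itself had log2 ratios of 0.36, 0.24 and 0.37 in the mutant and -0.25, -0.06 and -0.06 in WT.

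Of the 36 genes, 30 had a value on all 6 arrays and entered the test. The mutant 6 mM array lacked ATG16, ATG23, ATG34 and ATG45. The WT 6 mM array lacked ATG41 and ATG42, and the WT 9 mM array lacked ATG41.

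In the mutant, 6 of the 30 genes rose and 3 fell, which left 21 that passed in neither direction. Among all 5212 genes tested there, 27.9% were called, 12.1% higher and 15.8% lower. In WT, 12 of the 30 rose, 18 did not pass and none fell, and among all genes 33.5% were called, 17.2% higher and 16.3% lower. At an unadjusted limma p below 0.05, 15 of the 30 had a positive and 2 a negative slope in WT. The mutant counts were 7 and 3. The share of all genes at that threshold was not taken. The genes ATG18, ATG19, ATG33 and ATG36 rose in both genotypes, 5 were called in the mutant but not in WT, and 8 in WT but not in the mutant, which by itself tests no difference. The median slope of the list was 0.01 per mM in the mutant and 0.09 in WT, against medians of 0 over all genes in both genotypes. On the values as deposited, where all genes are shifted down, it was -0.05 in the mutant and 0.04 in WT, against all-gene medians of -0.06 and -0.05.

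As ratios per array, the list median at 3, 6 and 9 mM was -0.07, 0.09 and 0.15 in the mutant and 0.19, 0.53 and 0.78 in WT. At least 2-fold above the array median stood 1, 5 and 7 of the 30 genes in the mutant, where 4.3%, 7.35% and 14.4% of all genes did so. In WT the counts were 5, 9 and 11, where 9.57%, 14.2% and 17.3% of all genes did so. At least 2-fold below it stood 2 genes at each dose in the mutant (8.54%, 17.8% and 14% of all genes), and 1, 0 and 2 in WT (8.73%, 13.4% and 18.3%).

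**Figure D1:**
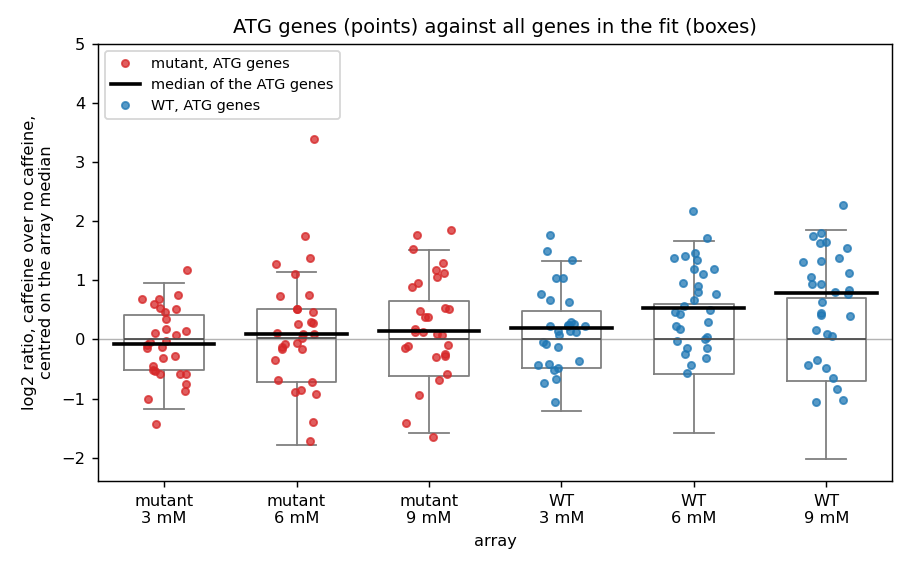
Log2 ratio of caffeine over no caffeine, centred on the array median, on each array (mutant left, WT right). Points are the 30 ATG genes with a value on all arrays, black bars their median, and grey boxes the quartiles of all 5212 genes with whiskers at the 5th and 95th percentiles. The ATG median lies between -0.07 and 0.15 on the mutant arrays and reaches 0.78 on the WT 9 mM array.

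The counts within a genotype moved with the fit, for the list as for all genes. With an intercept shared by all arrays, which allows for a constant dye effect of a gene, 0 of the 30 passed in either genotype, and the calls over all genes dropped to 0.422% in the mutant and 2.76% in WT. The median slope of the list in that fit was 0.03 in the mutant and 0.09 in WT. With arrays scaled to the same spread, 5 passed in the mutant and 5 in WT, where 13.2% and 19.6% of all genes did, and the list medians were 0.01 and 0.08. On the values as deposited 2 rose and 6 fell in the mutant, and 5 rose and 3 fell in WT, where 37.2% and 37.8% of all genes were called. The count was 3 in the mutant without the mutant 6 mM array and 7 in WT without the WT 9 mM array. Over all genes, 11.2% and 19.8% were called in those fits.

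The Atg1 kinase complex starts the membrane. ATG1, the kinase, stood at 0.47, 0.51 and 0.95 in the mutant at 3, 6 and 9 mM and at 0.15, 0.91 and 0.77 in WT. Its slope was 0.10 ± 0.04 in both genotypes, with limma adjusted p = 0.0541 in the mutant and adjusted p = 0.0498 in WT, so the WT call lay at the edge of the threshold. It was lost when any of the 6 arrays was left out (adjusted p between 0.0508 and 0.174). ATG13, the regulatory subunit that TOR complex 1 phosphorylates, had values of 0.11, 0.02 and -0.28 in the mutant and 0.67, -0.43 and -0.43 in WT. Neither slope of ATG13 passed (-0.02 ± 0.04, adjusted p = 0.795 in the mutant and -0.04 ± 0.04, adjusted p = 0.542 in WT).

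The scaffold of that complex is made of Atg17, Atg29 and Atg31. ATG17 rose in the mutant with 0.54, 0.26 and 1.17 (slope 0.11 ± 0.04, adjusted p = 0.0477), a call kept when the WT 9 mM array was left out (adjusted p = 0.0432) and lost without each of the others (adjusted p up to 0.465). Its WT values, 0.23, 0.43 and 0.94, did not pass. ATG31 stood at -0.05, 0.73 and -0.25 in the mutant and rose in WT with 0.23, 1.10 and 0.94 (slope 0.13 ± 0.04, adjusted p = 0.0328). That WT call ended when the WT 6 mM array (slope 0.10, adjusted p = 0.144) or the WT 9 mM array (slope 0.16, adjusted p = 0.115) was left out. ATG29 had its highest WT value at the lowest dose, with -0.09, -0.06 and 0.10 in the mutant against 1.04, 0.81 and 0.42 in WT, and passed in neither. ATG11, the scaffold of selective autophagy, lay between -0.30 and -0.14 in the mutant and between -1.06 and 0.00 in WT.

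**Figure D2:**
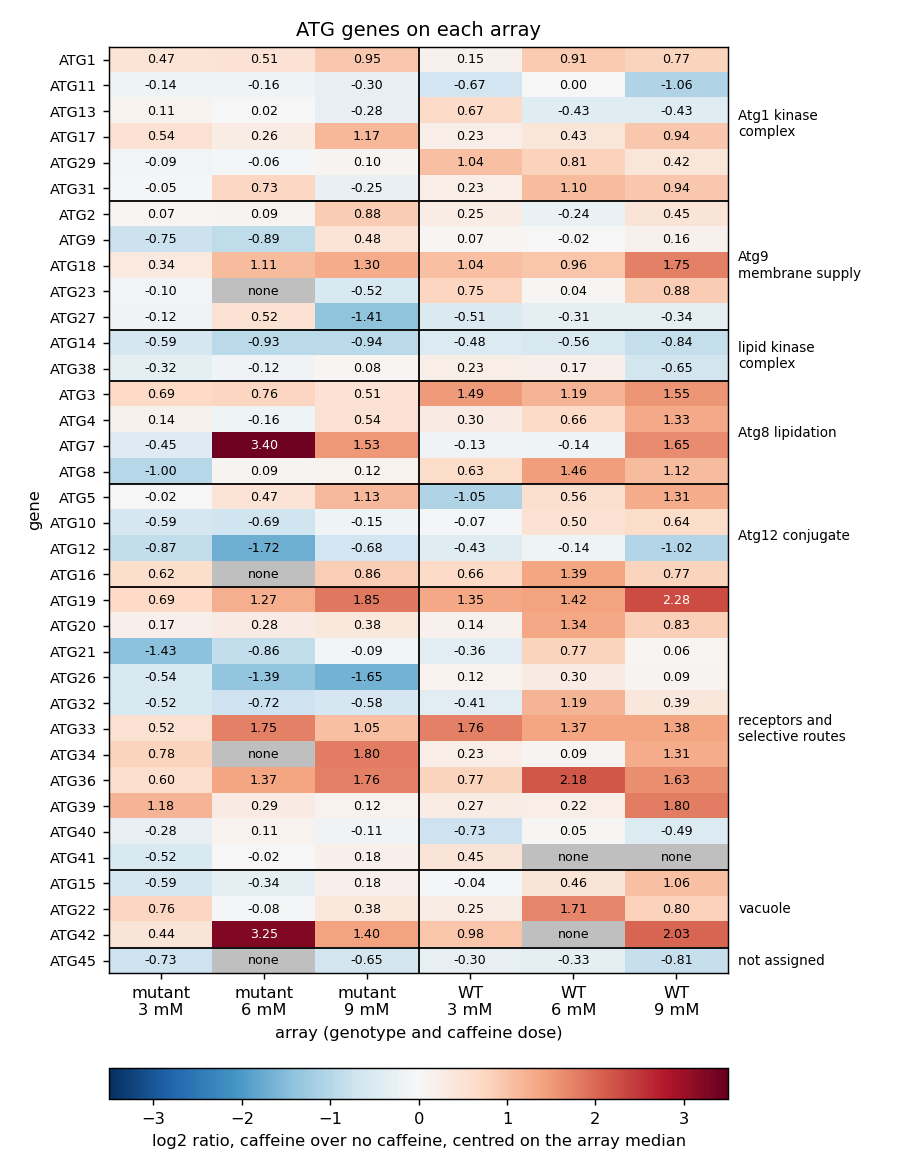
Centred log2 ratio of each of the 36 ATG genes (rows, grouped by role) on each of the 6 arrays (columns, mutant left of WT), red for higher and blue for lower with caffeine, grey where the array gave no value. ATG3, ATG19, ATG33 and ATG36 are above 0.5 on all arrays, and the darkest cells are ATG7 (3.40) and ATG42 (3.25) on the mutant 6 mM array.

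Of the genes that supply membrane, only ATG18 passed the test among the 4 in the fit. Over all genes, 27.9% were called in the mutant and 33.5% in WT. Atg18 binds the lipid made by the autophagy lipid kinase and works with the lipid transfer protein Atg2. ATG18 rose in both genotypes, with 0.34, 1.11 and 1.30 in the mutant (slope 0.15 ± 0.04, adjusted p = 0.0117) and 1.04, 0.96 and 1.75 in WT (slope 0.20 ± 0.04, adjusted p = 0.00175). The ranges of the genotypes overlapped. The mutant call ended when either the mutant 6 mM array (adjusted p = 0.0759) or the 9 mM array of that genotype (adjusted p = 0.0911) was left out. ATG9, which codes for the membrane protein of the seed vesicles, had -0.75, -0.89 and 0.48 in the mutant and 0.07, -0.02 and 0.16 in WT, so its WT values stayed within 0.16 of the array median. Its slope was -0.03 ± 0.05 in the mutant (adjusted p = 0.697) and 0.01 ± 0.05 in WT (adjusted p = 0.865). ATG2 and ATG27, whose product travels with Atg9, did not pass. They lay between -1.41 and 0.88 in the mutant and between -0.51 and 0.45 in WT. ATG23, coding for the other companion of Atg9, stood at -0.10 and -0.52 in the mutant at 3 and 9 mM and at 0.75, 0.04 and 0.88 in WT.

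ATG14, the subunit that directs the lipid kinase Vps34 to autophagy, was below the array median on all 6 arrays. Its values were -0.59, -0.93 and -0.94 in the mutant and -0.48, -0.56 and -0.84 in WT. It fell in the mutant (slope -0.13 ± 0.04, adjusted p = 0.0251), a call lost when any of the mutant arrays was left out (adjusted p up to 0.138), and did not pass in WT (-0.10 ± 0.04, adjusted p = 0.0565). The slopes differed by -0.03 ± 0.05, mutant minus WT (adjusted p = 0.793). ATG38, another subunit of that complex, lay between -0.32 and 0.08 in the mutant and between -0.65 and 0.23 in WT. Of the lipid kinase subunits without an ATG symbol in the platform annotation, VPS30 and VPS34 also passed in neither genotype. VPS30 stood at -0.90, -0.93 and -0.02 in the mutant and at -0.17, -0.16 and -0.49 in WT. VPS34, the kinase itself, had 0.05, 0.24 and 0.08 in the mutant and 0.39, -0.16 and 0.53 in WT. VPS15 had a value only on the WT 9 mM array (-0.16) and was not tested.

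Atg8 is the ubiquitin-like protein that is joined to membrane lipid. It is trimmed by the protease Atg4, activated by Atg7 and transferred by Atg3. ATG8 stood at -1.0, 0.09 and 0.12 in the mutant against 0.63, 1.46 and 1.12 in WT, and the genotypes did not overlap. Among all genes, 14.6% had all mutant values below all WT values, and 13.7% had them above. These shares also apply to ATG3, ATG10, ATG26 and ATG32 below. It rose in WT (slope 0.16 ± 0.05, adjusted p = 0.0141). That call ended without the WT 6 mM array (slope 0.13, adjusted p = 0.0949) and on the values as deposited (slope 0.11, adjusted p = 0.0676). In the mutant its slope was -0.01 ± 0.05 (adjusted p = 0.876). The difference in slope, -0.17 ± 0.06 per mM, did not pass (adjusted p = 0.139). The genotype difference passed in 1 of 14 alternatives, with the dose entered as a factor beside a genotype term (adjusted p = 0.0283). That fit tests a shift shared by the doses, not a slope. It called 11.3% of all genes, against 4.26% for the slope difference in the main fit. The adjusted p over the alternatives ran from 0.0283 to 0.357.

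ATG3 stood at 0.69, 0.76 and 0.51 in the mutant against 1.49, 1.19 and 1.55 in WT, again without overlap. It rose in WT (slope 0.20 ± 0.04, adjusted p = 0.00358) and did not pass in the mutant (0.09 ± 0.04, adjusted p = 0.144). The difference in slope, mutant minus WT, was -0.11 ± 0.06 and did not pass (adjusted p = 0.315). The WT values of ATG3 were already at their level at 3 mM, and with a shared intercept the WT slope was 0.05 (adjusted p = 0.78). ATG4 had 0.14, -0.16 and 0.54 in the mutant and 0.30, 0.66 and 1.33 in WT, where it rose with dose (slope 0.13 ± 0.04, adjusted p = 0.0155). Without the WT 9 mM array that call ended (slope 0.11, adjusted p = 0.246).

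ATG7 was far higher on 1 array than on the others, with -0.45, 3.40 and 1.53 in the mutant and -0.13, -0.14 and 1.65 in WT. The mutant 6 mM array alone gave the value of 3.40, the highest of any ATG gene on any array. The call in the mutant (slope 0.26 ± 0.07, adjusted p = 0.0191) ended without that array, where the slope was 0.14 (adjusted p = 0.137).

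**Figure D3:**
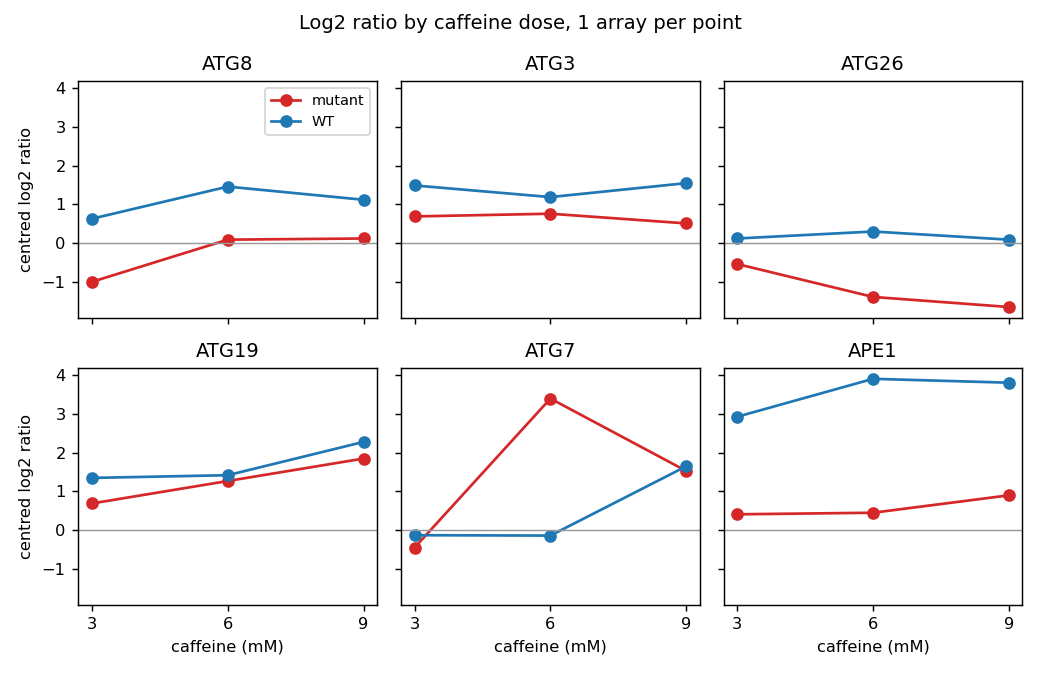
Centred log2 ratio against caffeine dose (mM) for 5 ATG genes and APE1, mutant in red and WT in blue, 1 array per point and no error bars since no dose was repeated. ATG8, ATG3, ATG26, ATG19 and APE1 lie lower in the mutant at each dose, ATG19 is highest at 9 mM in both genotypes, and the ATG7 value of 3.40 rests on the mutant 6 mM array.

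In the Atg12 conjugate, which helps to place Atg8, ATG12 fell in the mutant with -0.87, -1.72 and -0.68 (slope -0.15 ± 0.05, adjusted p = 0.0295), a call lost without the mutant 6 mM array (slope -0.10, adjusted p = 0.222) or the mutant 3 mM array (slope -0.14, adjusted p = 0.0639). Its WT values were -0.43, -0.14 and -1.02 and did not pass. ATG5, which codes for the protein that receives Atg12, was above the array median at the top dose, with -0.02, 0.47 and 1.13 in the mutant and -1.05, 0.56 and 1.31 in WT, without passing. ATG10, the conjugating enzyme, had -0.59, -0.69 and -0.15 in the mutant against -0.07, 0.50 and 0.64 in WT, without overlap and without passing in either. ATG16, whose product binds Atg5, stood at 0.62 and 0.86 in the mutant at 3 and 9 mM and at 0.66, 1.39 and 0.77 in WT. When genes with at least 2 values per genotype were let into the fit, ATG16 rose in WT (slope 0.14 ± 0.04, adjusted p = 0.027).

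Among the receptors and selective routes, 3 of the 9 genes in the fit rose and 1 fell in the mutant, while 5 rose and none fell in WT. Over all genes, 12.1% rose and 15.8% fell in the mutant, and 17.2% rose and 16.3% fell in WT. ATG19, the receptor that brings the vacuolar enzymes Ape1 and Ams1 to the forming membrane, had 0.69, 1.27 and 1.85 in the mutant and 1.35, 1.42 and 2.28 in WT. The value was higher at each higher dose in both genotypes. Its slope was 0.21 ± 0.04 in the mutant (adjusted p = 0.00268) and 0.26 ± 0.04 in WT (adjusted p = 0.000248), and both calls held when each array was left out in turn. ATG36, the receptor for peroxisomes, had 0.60, 1.37 and 1.76 in the mutant and 0.77, 2.18 and 1.63 in WT. Its slope was 0.21 ± 0.04 in the mutant (adjusted p = 0.00476) and 0.24 ± 0.04 in WT (adjusted p = 0.000909). These calls too held with each array left out, but the mutant call lay at the edge without the mutant 9 mM array (adjusted p = 0.0499).

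ATG33, a protein of the mitochondrial outer membrane that acts in mitophagy, had 0.52, 1.75 and 1.05 in the mutant and 1.76, 1.37 and 1.38 in WT. The highest WT value was that at 3 mM. ATG33 passed in the mutant (slope 0.17 ± 0.05, adjusted p = 0.0263) and in WT (0.21 ± 0.05, adjusted p = 0.00755). With a shared intercept the mutant slope was -0.004 and the WT slope 0.03, and without the mutant 6 mM array the mutant call ended (slope 0.12, adjusted p = 0.161). ATG32, the mitophagy receptor, showed no such pattern, with -0.52, -0.72 and -0.58 in the mutant against -0.41, 1.19 and 0.39 in WT. Its genotypes did not overlap, and neither slope passed.

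ATG39 and ATG40 code for receptors of the endoplasmic reticulum, ATG39 for the part around the nucleus. ATG39 stood at 1.18, 0.29 and 0.12 in the mutant and rose in WT with 0.27, 0.22 and 1.80 (slope 0.15 ± 0.05, adjusted p = 0.0339). That call rests on the WT 9 mM array, without which the slope was 0.05 (adjusted p = 0.699). ATG40 lay between -0.28 and 0.11 in the mutant and between -0.73 and 0.05 in WT. ATG20, a sorting nexin of selective routes, had 0.17, 0.28 and 0.38 in the mutant and rose in WT with 0.14, 1.34 and 0.83 (slope 0.13 ± 0.04, adjusted p = 0.0254). Without the WT 6 mM array that call ended (slope 0.09, adjusted p = 0.143), as it did without the WT 9 mM array (slope 0.19, adjusted p = 0.0512). ATG21, coding for a lipid-binding relative of Atg18, had -1.43, -0.86 and -0.09 in the mutant and -0.36, 0.77 and 0.06 in WT.

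ATG34, a relative of ATG19 and its neighbour in the annotation, stood at 0.78 and 1.80 in the mutant at 3 and 9 mM and at 0.23, 0.09 and 1.31 in WT. In the fit that admits genes with a missing value, ATG34 rose in the mutant (slope 0.21 ± 0.05, adjusted p = 0.0101) and did not pass in WT (0.10 ± 0.04, adjusted p = 0.0712). Whether ATG19 transcripts bind the ATG34 spot was not tested. ATG41 had -0.52, -0.02 and 0.18 in the mutant and 0.45 in WT at 3 mM. ATG45 lay below 0 on its 5 arrays, between -0.73 and -0.65 in the mutant and between -0.81 and -0.30 in WT.

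ATG26 was the only one of the 30 genes whose slopes differed between the genotypes, where 4.26% of all genes differed, 2.32% with a lower and 1.94% with a higher slope in the mutant. It codes for a sterol glucosyltransferase needed for the breakdown of peroxisomes in the yeast Pichia pastoris. ATG26 fell in the mutant with -0.54, -1.39 and -1.65 (slope -0.20 ± 0.04, adjusted p = 0.00287), against 0.12, 0.30 and 0.09 in WT. The genotypes did not overlap, and the difference in log2 ratio, mutant minus WT, was -0.66, -1.69 and -1.74 over the rising doses. The difference in slope, mutant minus WT, was -0.22 ± 0.05 (adjusted p = 0.0352). A dye effect constant for the gene cancels in this difference, but the call was lost when any of the 6 arrays was left out (adjusted p between 0.0532 and 0.117, slope difference between -0.25 and -0.21) and with arrays scaled to the same spread (adjusted p = 0.169). The fall within the mutant held with each array left out, with adjusted p up to 0.0294.

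The vacuole breaks down what autophagy delivers. ATG22, coding for an exporter of amino acids from it, had 0.76, -0.08 and 0.38 in the mutant and rose in WT with 0.25, 1.71 and 0.80 (slope 0.14 ± 0.05, adjusted p = 0.0289). Without the WT 6 mM array that call ended (slope 0.09, adjusted p = 0.199). ATG15, the lipase that opens the delivered vesicles, had a higher value at each higher dose in both genotypes without passing, with -0.59, -0.34 and 0.18 in the mutant and -0.04, 0.46 and 1.06 in WT. ATG42, a vacuolar carboxypeptidase, had 0.44, 3.25 and 1.40 in the mutant and 0.98 and 2.03 in WT at 3 and 9 mM. With the missing value admitted, its slope was 0.27 ± 0.06 in the mutant (adjusted p = 0.00942) and 0.24 ± 0.07 in WT (adjusted p = 0.0252). The mutant 6 mM array gave its value of 3.25, and the WT slope rests on the 3 and 9 mM arrays alone. Calls for genes with a missing value were not refitted with an array left out.

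**Figure D4:**
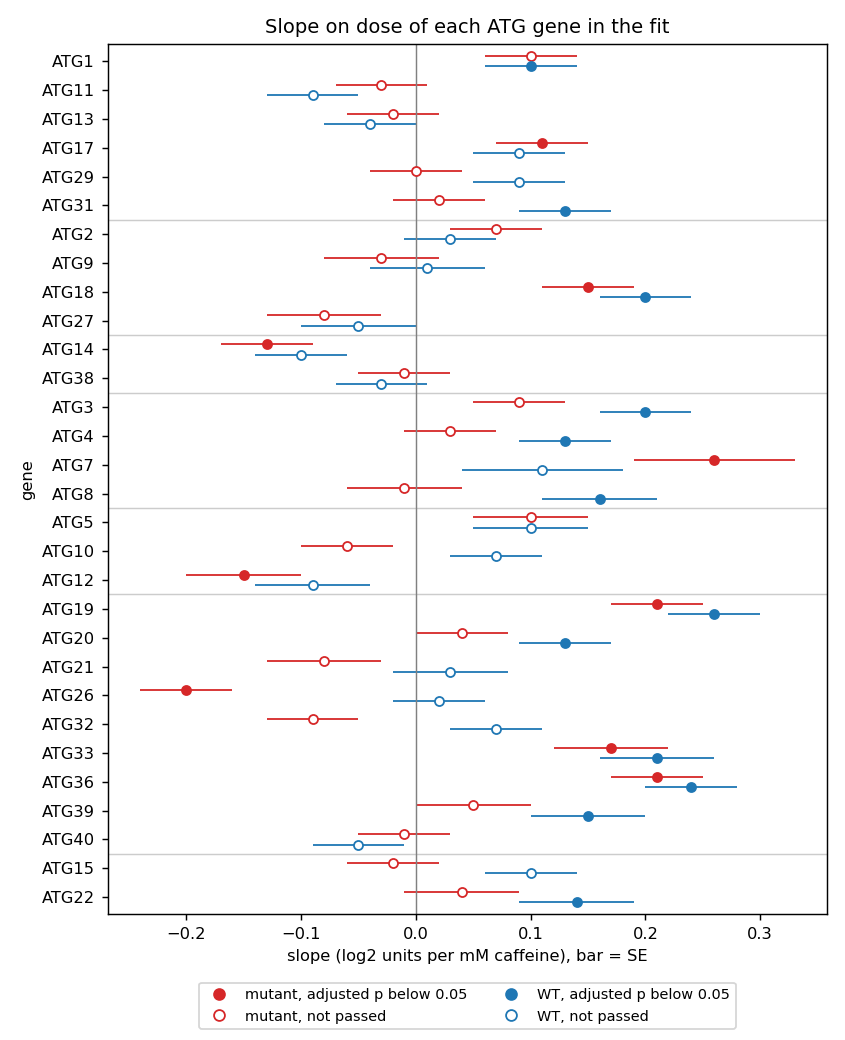
Slope on caffeine dose (log2 units per mM, bars are SE) of the 30 ATG genes in the fit, ordered by role, mutant in red above WT in blue. Filled points passed the test in that genotype: 9 in the mutant (6 above 0, 3 below) and 12 in WT (all above 0).

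The genotypes were also set side by side over the whole list. The median difference in slope, mutant minus WT, was -0.05 per mM in the list and -0.01 over all genes. As a difference of log2 ratios, its median was -0.30, -0.39 and -0.33 at 3, 6 and 9 mM in the list, against -0.05, -0.16 and 0.04 over all genes. The mutant value was below WT at each dose for 12 of the 30 genes, where 26.3% of all genes did so, and above it at each dose for ATG40 alone, where 24.5% did so. For ATG3, ATG8, ATG10, ATG26, ATG29 and ATG32 all 3 mutant values lay below all 3 WT values, which held for 14.6% of all genes. The opposite held for none of the 30 and for 13.7% of all genes. Only the call for ATG26 came from a test of the difference.

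A list of 31 further autophagy genes without an ATG symbol in the annotation gave 25 in the fit, since 3 had no named spot and 3 lacked a value. Of these, AMS1 rose and VAC8, coding for a vacuolar membrane protein of selective autophagy, fell in the mutant, where 27.9% of all genes were called. In WT 7 rose and none fell, where 17.2% of all genes rose and 16.3% fell. The regulators of ATG transcription UME6, SIN3, RPD3, RIM15, RPH1 and PHO23 gave no call in either genotype. In the set that fuses the completed membrane with the vacuole, 3 of 9 genes rose in WT (VAM7, VTI1 and YKT6, which code for fusion proteins), and none passed in the mutant. The same shares of all genes apply to these counts. TRS85, coding for a subunit of a vesicle tethering complex, also rose in WT. The limma adjusted p in WT was 0.0162 for VAM7, 0.0419 for VTI1, 0.0225 for YKT6 and 0.0398 for TRS85. For VAC8 in the mutant it was 0.0261. Of the genes called in this list, only APE1 was followed through the alternative fits. The strongest value among the 25 was that of APE1, the aminopeptidase that Atg19 carries. APE1 had 0.41, 0.45 and 0.90 in the mutant against 2.93, 3.91 and 3.81 in WT. It rose in WT (slope 0.53 ± 0.06, adjusted p = 2.96e-05) and did not pass in the mutant (0.10 ± 0.06, adjusted p = 0.211). With a shared intercept the WT slope was 0.33 and was not called (adjusted p = 0.0948). Its slope was lower in the mutant by a difference of -0.43 ± 0.08 (adjusted p = 0.0148). That difference was not called when the WT 6 mM array was left out (adjusted p = 0.0816), nor with arrays scaled to the same spread (adjusted p = 0.157). Of the other genes listed as cargo, AMS1, the vacuolar mannosidase, rose in both genotypes, with 0.76, 1.10 and 1.58 in the mutant and 0.99, 0.21 and 1.33 in WT. LAP3 had 0.74, -0.86 and -0.82 in the mutant and rose in WT with 0.91, 1.0 and 1.22 (slope 0.16 ± 0.05, adjusted p = 0.0178). APE4 had 0.10, 0.24 and 0.23 in the mutant and -0.05, 0.25 and -0.24 in WT, and passed in neither.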

How the data were processed

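Per the labels, untreated polyadenylated RNA was labelled with Cy3 and RNA from caffeine-treated cells with Cy5 on 6 arrays, with no dye exchange. The deposited values, made by the authors, are log2 ratios: 2 to the power of a value is a ratio with 2 decimals for 100.0% of values, within 0.0001 after multiplication to hundredths. The sources used here give neither background correction nor filters nor normalization. The deposited readme names scanner files, which were not used here; signal over background is therefore unknown, and the number of arrays limits the precision.

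Of 6214 probes, 5596 had 1 gene symbol, 0 several and 618 none in the platform annotation; by Entrez identifier the 5596 matched RefSeq genes (R64). Genes with several spots took their mean. Arrays were centred on their median, and 5212 genes with a value on all arrays entered the fit (R 4.3.3, limma 3.58.1: lmFit, eBayes; 4 residual and 9.69 prior degrees of freedom; 2-sided; called at an adjusted p below 0.05). The fit was tested on simulated data. Array values and slopes are given for every ATG gene called and for ATG1, ATG8, ATG9, ATG13 and ATG14. Among genes without an ATG symbol in the annotation, those with a called genotype difference and VPS30, VPS34 and VPS15 were named. AMS1, LAP3, APE4, TRS85, VAC8, VAM7, VTI1 and YKT6 were chosen after their values were seen, as was the giving of array values for other ATG genes. The members and lists were chosen with earlier results of these data known. Promoter motifs were not examined.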

Additional observations from a re-analysis of the deposited data

Results flagged for a closer look

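ATG26 differed between the genotypes by a test of the difference itself, with a slope difference, mutant minus WT, of -0.22 per mM (limma adjusted p = 0.0352). It was called in 0 of 6 fits with an array left out and in 5 of 14 alternatives, with adjusted p up to 0.169.

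APE1 differed in the same way, with a slope difference of -0.43 per mM (adjusted p = 0.0148). It was not called without the WT 6 mM array (adjusted p = 0.0816), with arrays scaled to the same spread (adjusted p = 0.157) or without moderation across genes (adjusted p = 0.249).

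VTI1, coding for a fusion protein of the vacuole and named after its values were seen, moved in opposite directions on the arrays of the genotypes. It had -0.70, -0.79 and -0.13 in the mutant and 0.59, 0.89 and 0.86 in WT. Its slope difference of -0.18 per mM did not pass the test (adjusted p = 0.0969).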

How the results depend on the processing

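All alternatives were planned. On the values as deposited, the median ATG slope was -0.053 in the mutant and 0.043 in WT, against all-gene medians of -0.062 and -0.051, the WT slope of ATG9 was -0.039 and the ATG1 difference, mutant minus WT, -0.01. With a shared intercept no ATG gene passed in the mutant (0) or in WT (0), where 0.422% and 2.76% of all genes did. In that fit mutant slopes turned to -0.101 for APE1, -0.004 for ATG33, 0.047 for ATG8 and 0.091 for ATG9. This fit spends a degree of freedom on the dye effect. With arrays scaled to the same spread, 5 ATG genes were called in the mutant, 5 in WT and 0 for the difference. Over all genes, 13.2%, 19.6% and 0% were called in that fit. Without moderation across genes the counts were 1 in the mutant, 6 in WT and 0 for the difference. In that fit 1.57%, 14.4% and 0% of all genes were called. The mutant call was a fall, and in WT 5 rose and 1 fell. The difference count was 0 with a constant response in place of a line and 2 with dose as a factor. Over all genes, 3.72% and 11.3% were called for the difference in those fits. Leaving out each array gave 3 to 10 calls in the mutant, 7 to 12 in WT and 0 for the difference, against 1 with all arrays. Over all genes, those fits called 11.2% to 31.5% in the mutant, 19.8% to 35.6% in WT and 0.365% to 5.72% for the difference. Slopes that changed sign when an array was left out were uncalled: ATG8 (-0.054 to 0.014), ATG9 (-0.169 to 0.023) and ATG13 (-0.024 to 0.01) in the mutant, and the differences of ATG1 (-0.029 to 0.021), ATG9 (-0.181 to 0.01) and ATG13 (-0.004 to 0.045). Raising ratios below 0.1 to 0.1 changed no call among the named slopes. The lowest ratio of any ATG gene was 0.22, on the mutant 9 mM array, so that fit could act on ATG calls only through other genes. Apart from these fits, the cause of each change was not tested. The labels give no replicate numbers; arrays of the same dose are matched in the fit with dose as a factor.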
